A study of Mus musculus with 18 samples.

Results

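The libraries described here hold the CD11b-negative, DAPI-negative cells of the mouse retina, which is the retina without its microglia, from 4 controls and 5 knockouts. They were taken by their labels alone and make up 9 of the 18 libraries of the series. The other 9 are the CD11b-positive microglia sorted at the same time. CD11b is an integrin on the surface of myeloid cells, microglia among them, and DAPI is a dye that enters dead cells. Control mice were Bmal1f/f, with floxed copies of the clock gene Bmal1. Knockout mice were Bmal1-mg/-mg, a name that stands for loss of Bmal1 in microglia. By the genotype name, the gene was thus targeted in the cells that this fraction leaves out, and the comparison asks how the rest of the retina differs beside them. Whether the deletion stayed within microglia was not tested. The labels name no recombinase or driver, no age and no hour of collection. They number the libraries and do not state that every library is a mouse of its own, so the p-values reflect the spread among these libraries, which may be partly technical.

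Rods and cones turn light into an electrical signal, bipolar cells pass it on to ganglion cells, and horizontal and amacrine cells shape it on the way, while Mueller glia span all layers. Rods outnumber all other cells of the mouse retina and serve dim light, cones serve daylight, and the 2 great classes of bipolar cell, ON and OFF, respond to light getting brighter or darker. BMAL1 drives a daily rhythm of transcription together with its partner CLOCK by binding E-box letters in DNA, and microglia are the resident macrophages of the retina.

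The libraries held 36675435 to 47563119 counts in total, and 3 counts were worth 0.0631 to 0.0818 CPM, the counts out of 1000000 of a library whose size was scaled by the TMM factors of edgeR. No pair of libraries was identical. Spearman correlations across the 5016 well-covered genes were 0.81 to 0.91 between libraries of the same genotype and 0.68 to 0.84 between genotypes. Control libraries had counts for 16510 to 18715 genes and knockout libraries for 18761 to 19713, with no overlap (means 17640 ± 1006 and 19230 ± 340.5, SD, n = 4 and 5, two-sided exact permutation p = 0.0159, the smallest this design allows, 0.0636 after Benjamini-Hochberg adjustment over 4 such measures). The share of counts held by the 10 most abundant genes was 23.7 ± 2.68% in controls and 20.01 ± 1.33% in knockouts (exact permutation p = 0.0476, adjusted p = 0.0952). Control 1 and knockout 1 had 0 counts in the Y-linked genes examined and the other libraries 1551 to 3645, so each genotype held 1 such library. The sort left little microglial RNA. Summed over 18 markers of microglia, the level was 14.1 to 29.3 CPM in control retina and 8.26 to 20.6 in knockout retina, against 88700 to 98000 in the sorted microglia. In control retina 4 of the markers were at 0 in every library and in knockout retina 4, not all of them the same genes. Itgam, which encodes CD11b itself, did not exceed 0.026 CPM in retina and was at least 305 CPM in every microglia library. Summed over 12 markers of monocytes, border macrophages and granulocytes, the level was 0.239 to 5.52 CPM in the controls and 17.1 to 20.0 CPM in knockouts, nearly all of it from Lyve1, a hyaluronan receptor. Of the 12 markers, 7 were at 0 in every control and 7 in every knockout, not all of them the same genes. Itgam, Esr1 and Lyve1 were picked out after their values were seen. The part that microglia, monocytes, border macrophages and granulocytes play in the results below was not tested.

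The targeted gene appears as Arntl (chromosome 7, 113207465 to 113314126, plus strand of GRCm38, ENSMUSG00000055116). It had 122, 146, 129 and 102 CPM in controls 1 to 4 and 100.4, 84.1, 83.5, 88.1 and 132 CPM in knockouts 1 to 5. Knockout 5 lay above controls 1, 3 and 4, so the groups overlapped, and Arntl did not pass the test (log2 change -0.35, SE 0.17, edgeR adjusted p = 0.392). Microglia are nearly absent from this fraction and the count covers the whole gene, so this level is no check of the deletion. In the sorted microglia, also counted over the whole gene, Arntl averaged 18.55 CPM in controls and 13.63 CPM in knockouts. That change did not pass either (log2 change -0.44, SE 0.62, edgeR adjusted p = 0.999), so a loss of Bmal1 is not shown by these counts.

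The retina differed by genotype in both directions, with larger steps upward than downward among the genes that passed the test. Of 15332 genes put to the quasi-likelihood test of edgeR, 255 (1.66%) passed a Benjamini-Hochberg adjusted p under 0.05, with 205 (1.34%) higher and 50 (0.326%) lower in knockouts. Among the 5016 well-covered genes, those with a mean of at least 30 CPM over the 9 libraries, 158 (3.15%) passed, 111 (2.21%) higher and 47 (0.937%) lower. Of the 111, 31 had a control mean under 30 CPM and reached the minimum only through their knockout levels. Of the 47, 3 had a knockout mean under 30 CPM. The minimum thus admits large upward steps from a low control level, which bears on the sizes given next. The median change of the 111 was 1.53 on the log2 scale, that of the 47 was -0.71, and in all 158 every knockout library lay beyond every control. The same separation was found in 392 (7.81%) of the well-covered genes upward and in 304 (6.06%) downward. Over all well-covered genes the median log2 change was -0.06, and 43.6% of the changes were positive. By the mean over all libraries, 55 rose and 11 fell of 3440 genes between 30 and 100 CPM, 53 rose and 28 fell of 1490 between 100 and 1000 CPM, and 3 rose and 8 fell of the 86 at or above 1000 CPM. At the boundary of 30 CPM lay Vsx1 (29.1), Gad1 (29.3) and Lss (29.9) on the outside and Rps16 (30.03), Calb2 (30.1) and Cntnap2 (30.2) on the inside. The count of calls moved with single libraries, to 137 without control 3, to 141, 123, 96 and 112 without knockouts 1, 2, 3 and 4, and to 342 without control 4. Once each library's trends on transcript length and GC content were removed, 206 genes were higher and 132 lower.

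**Figure D1:**
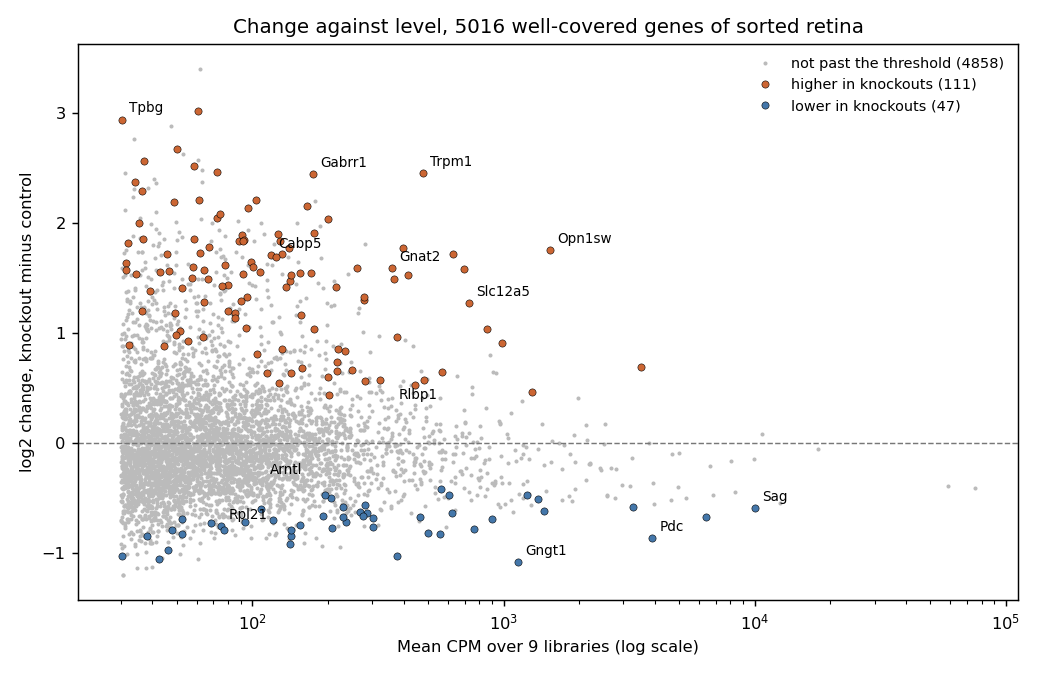
Log2 change (knockout minus control) against the mean level in CPM on a log scale for each of the 5016 well-covered genes, with the 111 higher genes in orange, the 47 lower genes in blue and the rest in grey. The higher genes lie up to 3.02 above 0 and mostly below 1000 CPM, the lower genes reach -1.08 and include rod genes of high level such as Sag and Pdc.

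Among cell class markers, the bipolar and cone genes that passed were higher in knockout retina and the rod genes that passed were lower, while no well-covered gene of Mueller glia passed with edgeR. Cabp5 (ENSMUSG00000005649) encodes a protein that binds calcium in bipolar cells (chromosome 7, 13398132 to 13408887, plus strand). It had 48.1, 42.7, 57.6 and 61.6 CPM in controls 1 to 4 and 152, 157, 212, 175 and 161 CPM in knockouts 1 to 5. Every knockout stood far above the highest control, and the level rose 3.26-fold (log2 change 1.71, SE 0.16, edgeR adjusted p = 0.00569), a call that held in all 9 leave-one-library-out fits (adjusted p 0.00846 to 0.0288). The cone marker Gnat2, the transducin alpha subunit of cones (ENSMUSG00000009108, chromosome 3, 108092789 to 108101432, plus strand), had 237, 101, 158 and 182 CPM in the controls and 501, 524, 545, 694 and 283 CPM in knockouts. Knockout 5 was the lowest knockout and still above every control, and Gnat2 rose 3.01-fold (log2 change 1.59, SE 0.29, adjusted p = 0.0355), passing, of the 9 leave-one-library-out fits, in those without control 1 and without knockout 5 (0.0205 to 0.0879). Rlbp1, the retinaldehyde-binding protein of Mueller glia (ENSMUSG00000039194, chromosome 7, 79374870 to 79387048, minus strand), had 216, 217, 327 and 489 CPM in the controls and 344, 395, 416, 513 and 295 CPM in knockouts. Here control 4 exceeded 4 of the 5 knockouts, and the log2 change of 0.33 (SE 0.26, adjusted p = 0.687) did not pass.

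**Figure D2:**
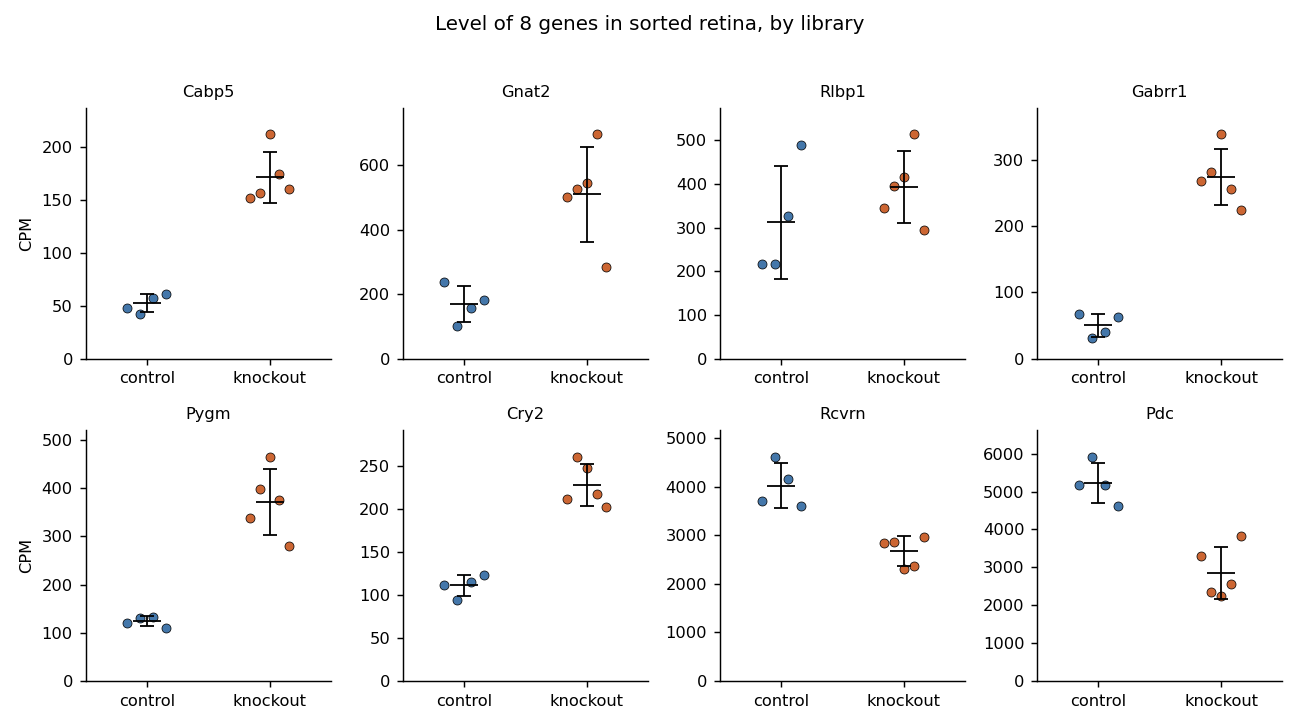
Level in CPM of 8 genes in each retina library, with points for the 4 controls (blue) and 5 knockouts (orange), the mean as a bar and the SD as whiskers, each axis starting at 0. Cabp5, Gnat2, Gabrr1, Pygm and Cry2 have every knockout above every control, Rcvrn and Pdc every knockout below, and in Rlbp1 the groups overlap.

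Promoters of 4 genes that moved are shown here, chosen for holding a short DNA word, because photoreceptor and bipolar genes are known to share it. The word is TAATCC, which homeodomain factors such as CRX and OTX2 are known to bind. RefSeq windows on GRCm38.p6 run from 250 bases before to 50 bases after a start site, 300 bases in all. Capitals mark TAATCC or its reverse complement GGATTA, and positions count from base 1 of the window. Cabp5 (chr7:13397905-13398204, plus strand) holds the word at bases 91 and 210, Gnat2 (chr3:108092816-108093115, plus strand) at base 232, Gngt1 (chr6:3993758-3994057, plus strand), a rod transducin gene, at base 207 and Sag (chr1:87803430-87803729, plus strand), the rod arrestin gene, at base 164.
Cabp5: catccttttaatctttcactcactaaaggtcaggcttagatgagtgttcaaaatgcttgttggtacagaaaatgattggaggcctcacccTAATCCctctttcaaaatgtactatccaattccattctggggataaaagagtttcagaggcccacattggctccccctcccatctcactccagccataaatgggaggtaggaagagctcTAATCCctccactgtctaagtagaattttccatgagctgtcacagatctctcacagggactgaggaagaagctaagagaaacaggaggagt
Gnat2: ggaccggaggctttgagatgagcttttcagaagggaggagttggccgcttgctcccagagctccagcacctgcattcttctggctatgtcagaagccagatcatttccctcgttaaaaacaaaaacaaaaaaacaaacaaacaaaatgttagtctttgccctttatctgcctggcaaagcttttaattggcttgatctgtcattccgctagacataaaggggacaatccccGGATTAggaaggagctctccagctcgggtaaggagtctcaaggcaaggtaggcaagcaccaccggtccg
Gngt1: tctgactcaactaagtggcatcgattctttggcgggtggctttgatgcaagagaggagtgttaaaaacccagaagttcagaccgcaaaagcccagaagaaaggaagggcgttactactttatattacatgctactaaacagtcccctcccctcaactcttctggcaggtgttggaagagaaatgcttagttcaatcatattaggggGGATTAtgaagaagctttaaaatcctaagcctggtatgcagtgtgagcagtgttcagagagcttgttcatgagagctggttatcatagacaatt
Sag: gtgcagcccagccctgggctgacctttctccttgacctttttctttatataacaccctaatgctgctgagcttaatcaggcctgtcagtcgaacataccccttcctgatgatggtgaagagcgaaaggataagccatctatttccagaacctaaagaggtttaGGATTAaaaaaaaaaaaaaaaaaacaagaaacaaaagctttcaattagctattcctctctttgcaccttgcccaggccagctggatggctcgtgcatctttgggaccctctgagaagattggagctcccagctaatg
Of other genes that moved, the windows of Opn1sw and Pdc hold no match, that of Cnga1 holds 1, and of the 2 windows of Trpm1 the first holds 1 and the second none. Cabp5 and Gnat2 rose and Gngt1 and Sag fell, so the word was found beside genes that moved in opposite directions. Counted on both strands, it was found in a window of 7 of 19 rod genes (36.8%), 3 of 12 cone genes (25.0%), 4 of 10 genes shared by bipolar cells (40.0%) and 1 of 14 genes of rod and ON bipolar cells (7.14%). Among well-covered genes with a window it was found for 13 of 92 that rose (14.1%) and 8 of 37 that fell (21.6%), against 8.22% of all 3991 well-covered genes and 8.14% of all 27025 genes with a window. Rcvrn, Gnb3, Pde6c, Pde6g and Bhlhe40 had no window. A match is a run of letters and not a measured site.

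The well-covered bipolar genes that passed were all higher in knockouts, among those of all bipolar cells and among those of the ON pathway. Of 12 genes shared by bipolar types, 9 were well covered, of which 5 rose and 0 fell. The median log2 change of the 9 was 1.54 against -0.06 over all well-covered genes. In 8 of the 9 every knockout exceeded every control, against 7.81% of all well-covered genes. Isl1, a LIM-homeodomain factor of ON bipolar cells, rose 4.24-fold, from 26.4 ± 14.4 to 112 ± 18.8 CPM (SD, n = 4 and 5, edgeR adjusted p = 0.0304). Scgn, the calcium-binding protein secretagogin of cone bipolar cells, rose 2.89-fold and the membrane protein gene Lrtm1 3.03-fold (adjusted p = 0.0478 and 0.0458). The exception in direction was Otx2, a homeodomain factor that photoreceptors use as well, at -0.26 (adjusted p = 0.532). Vsx1, a factor of cone bipolar cells just under the 30 CPM minimum, rose from 12.8 ± 5.16 to 42.1 ± 11.9 CPM (adjusted p = 0.0373). In bulk RNA of this kind, fewer or more cells of a type and less or more RNA per cell cannot be told apart, and a CPM is a share of a library and not an amount per cell.

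Genes of rod bipolar and ON bipolar cells showed the largest median of the cell class lists with at least 3 well-covered members. Of 16, 11 were well covered, 4 rose and 0 fell, the median was 2.10, and all 11 were positive. Trpm1, the cation channel that opens in the light response of ON bipolar cells, had 193, 44.9, 108 and 199.5 CPM in the controls and 704, 668, 1057, 890.1 and 429 CPM in knockouts. Control 2 was the lowest and knockout 5 the lowest knockout, with no overlap, and Trpm1 rose 5.5-fold (log2 change 2.46, SE 0.45, adjusted p = 0.0325). Car8, a relative of carbonic anhydrase, had 14.7, 13.02, 13.8 and 23.65 CPM in the controls and 58.9, 45.6, 74.2, 131 and 62.9 CPM in the knockouts (2.19, SE 0.34, adjusted p = 0.0189, passing in 8 of 9 leave-one-library-out fits). Gnao1, the G-protein alpha subunit downstream of the glutamate receptor of ON bipolar cells, rose 3.77-fold and the homeobox gene Sebox 3.63-fold (adjusted p = 0.034 and 0.0493). Grm6, the receptor itself, had 59.0 ± 32.7 CPM in the controls and 271 ± 83.8 CPM in knockouts without passing (2.20, SE 0.49, adjusted p = 0.0626). Of the 10 genes of OFF cone bipolar cells, 3 were well covered and 0 passed, although all 3 had an unadjusted p under 0.05 and were higher with DESeq2, and the median was 1.38. Grik1, a kainate receptor subunit, had 61.7 ± 34.7 and 199.5 ± 47.6 CPM (1.69, adjusted p = 0.0731), and Cdh11, a cadherin, 22.4 ± 9.95 and 53.9 ± 19.6 CPM (1.27, adjusted p = 0.186). Summed over each list, shared bipolar genes went from 801 ± 230 to 1925 ± 266 CPM, rod and ON bipolar genes from 604 ± 237 to 2223 ± 644 and OFF cone bipolar genes from 174 ± 87.2 to 475 ± 83.4, each without overlap. The calls among shared bipolar genes went from 5 to 1 without control 3 or any of knockouts 1 to 4, and those among rod and ON bipolar genes from 4 to 0 without control 3 and to 1 without any of the same knockouts. The medians stayed between 1.32 and 1.77 and between 1.70 and 2.25.

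Cone genes that passed were higher in knockouts and included an opsin, transducin subunits and a phosphodiesterase. Of 16 cone genes 11 were well covered, 4 rose and 0 fell, the median log2 change was 1.72 and all 11 were positive. In 7 of the 11 every knockout exceeded every control, against 7.81% of all well-covered genes. Opn1sw, the short-wavelength cone opsin, had 962.5, 422, 694.5 and 572 CPM in the controls and 2079, 1874, 2520, 3264 and 1436 CPM in the knockouts (1.75, SE 0.29, adjusted p = 0.0225, passing in 7 of 9 leave-one-library-out fits). The beta subunit of cone transducin, Gnb3, which ON bipolar cells also use, had 268, 184, 349.6 and 312 CPM in the controls and 920.2, 839, 1096, 1110 and 609 CPM in knockouts. It rose 3.29-fold (1.72, SE 0.23, adjusted p = 0.0135) and passed in all 9 leave-one-library-out fits. Pde6c, the cone phosphodiesterase, rose from 37.8 ± 15.1 to 135 ± 57.7 CPM (adjusted p = 0.0416), with 235.9 CPM in knockout 4 and 94.0 to 124 CPM in the other knockouts. None of the 5 cone genes under the minimum passed, with log2 changes from -0.68 to 4.50. Cone arrestin Arr3 had 55.5 ± 32.5 and 170.4 ± 64.2 CPM (1.62, SE 0.49, adjusted p = 0.15), and Ccdc136 56.3 ± 34.1 and 225 ± 83.7 CPM (2.00, SE 0.51, adjusted p = 0.097), neither passing. The summed level of the 16 genes was 2216, 961.2, 1666 and 1692 CPM in the controls and 5176, 4573, 5819, 7274 and 3142 CPM in knockouts, a ratio of means of 3.18. Control 2 and knockout 5 were the lowest of their groups, as they were for rod and ON bipolar genes. The 4 calls went to 1 without control 3 or knockout 3 and to 2 without control 4 or knockouts 1, 2 or 4, while the median stayed between 1.54 and 1.83.

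Rod genes were lower, by smaller steps than those of the bipolar and cone genes. All 27 rod genes were well covered, and all 27 had negative log2 changes, from -1.08 to -0.23 with a median of -0.55. In 19 every knockout lay below every control, against 6.06% of all well-covered genes. Of the 27, 7 fell and 0 rose. Pdc, phosducin, which binds the transducin beta and gamma subunits, had 5174, 5924, 5172 and 4622 CPM in the controls and 3292, 2348, 2238, 2569 and 3821 CPM in the knockouts (log2 change -0.87, SE 0.16, edgeR adjusted p = 0.0373). Rcvrn, the calcium sensor recoverin, had 3713, 4620, 4153 and 3603 CPM in the controls and 2836, 2870, 2309, 2375 and 2974 CPM in the knockouts (-0.59, SE 0.11, adjusted p = 0.0337). In both genes the highest knockout lay below the lowest control. Gngt1, the gamma subunit of rod transducin, had the largest step of the list, from 1613 ± 274 to 761 ± 219 CPM (-1.08, SE 0.21, adjusted p = 0.0409), with control 3 at 1202 CPM close to knockout 5 at 1094 CPM. Cnga1, the rod channel gated by cyclic GMP, fell from 736 ± 86.6 to 414 ± 77.1 CPM (-0.83, adjusted p = 0.0272), Pde6g, the inhibitory subunit of the rod phosphodiesterase, from 8054 ± 1200 to 5042 ± 727 CPM (-0.68, adjusted p = 0.0386), Sag from 12290 ± 2063 to 8142 ± 886 CPM (-0.59, adjusted p = 0.0493) and Esrrb, a nuclear receptor of rods, from 154 ± 22.1 to 94.0 ± 13.4 CPM (-0.71, adjusted p = 0.0472). Summed over the 27 genes the level was 217300, 305200, 277300 and 211300 CPM in the controls and 196100, 200300, 169200, 159100 and 195000 CPM in knockouts, a ratio of means of 0.728. The 7 calls went to 0 without control 2 or knockouts 2, 3 or 4, to 1 without knockout 1, to 2 without control 3, to 4 without control 1 and to 9 without knockout 5, while the median stayed between -0.60 and -0.43.

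**Figure D3:**
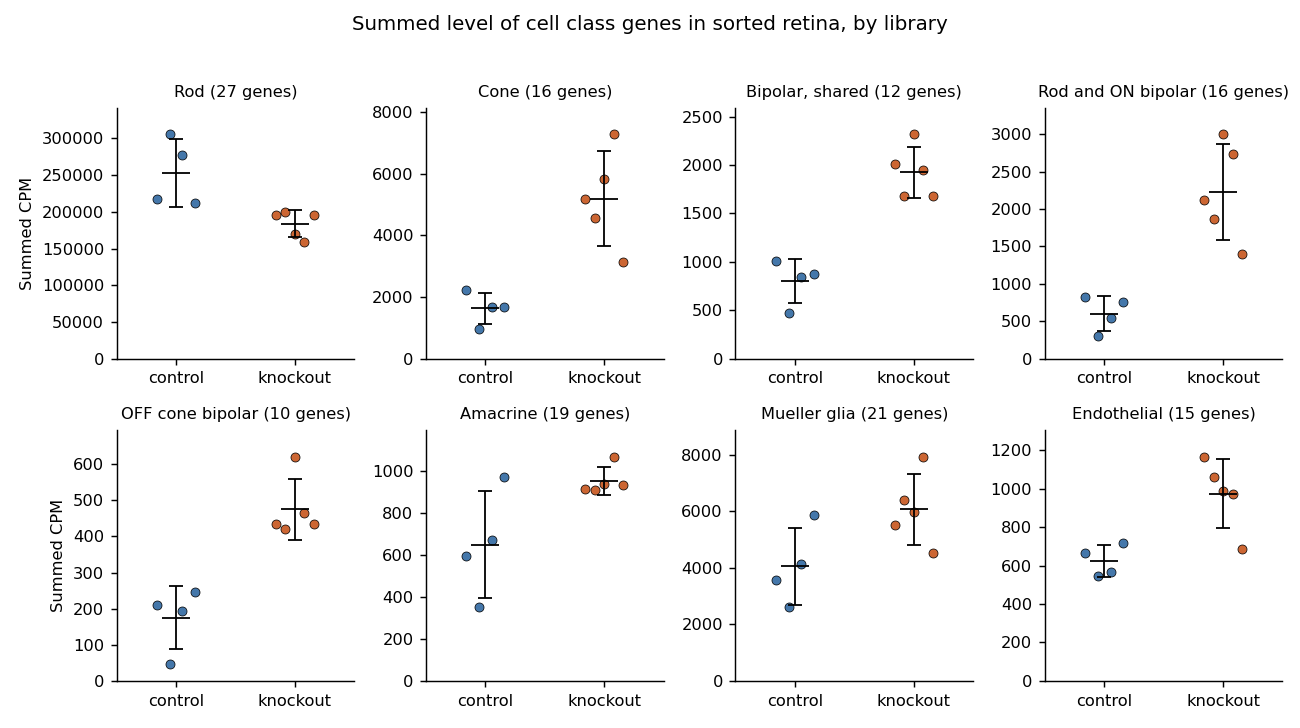
Summed CPM of the genes of 8 cell class lists in each retina library, with points for the 4 controls (blue) and 5 knockouts (orange), the mean as a bar and the SD as whiskers, each axis starting at 0. Cone and bipolar sums are higher in every knockout than in any control, rod sums lower, and amacrine, Mueller and endothelial sums overlap.

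Rod RNA, the number of genes with a count and genotype moved together, and a fit that includes either of the first 2 as a covariate left few calls. With the mean level of rod genes as a covariate 0 genes passed (611 at an unadjusted p under 0.05, against 2180 without it), and the medians of cone, shared bipolar and rod and ON bipolar genes were 0.10, 0.69 and 0.20. With the gene number of each library as a covariate 2 genes passed (1241 at an unadjusted p under 0.05), and the same medians were 0.88, 0.99 and 0.89. The summed rod level and the number of genes with a count each separated the genotypes without overlap, so their part and that of genotype cannot be told apart here.

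Amacrine and horizontal genes were mixed. Of 19 amacrine genes 7 were well covered, 1 rose and 0 fell, with a median of 0.63. Slc6a9, the glycine transporter GLYT1 of glycinergic amacrine cells, had 82.6, 67.1, 141 and 77.8 CPM in the controls and 187, 200.2, 248, 179 and 217 CPM in the knockouts (log2 change 1.17, SE 0.22, adjusted p = 0.038). It passed only in the fit without control 3 among the 9 that left out a library. Meis2, a transcription factor of GABAergic amacrine cells, had 133 ± 18.7 and 92.4 ± 14.5 CPM (-0.52, adjusted p = 0.132). The summed level was 353 to 973 CPM in the controls and 911 to 1068 CPM in knockouts, with control 4 inside the knockout range. Of 12 horizontal cell genes 3 were well covered and 0 of these passed, while 3 did at an unadjusted p under 0.05 and DESeq2 called 1 higher and 1 lower. The summed level was 341 ± 33.6 CPM in controls and 412.5 ± 18.8 CPM in knockouts, without overlap. Sept4, a septin of horizontal cells, had 78.0 ± 19.3 and 127 ± 23.5 CPM (0.70, adjusted p = 0.142). Tnr, tenascin-R, a matrix protein made by horizontal cells, was nearly absent from controls, with 0, 0.0299, 0 and 0 CPM, and had 33.6, 23.2, 31.5, 9.79 and 32.5 CPM in the knockouts (adjusted p = 0.00569, passing in all 9 leave-one-library-out fits). Its mean stayed under 30 CPM and its control level rests on 1 count. The horizontal cell factors Lhx1 and Onecut1 had 0 counts in all controls and too few in knockouts to be tested. In knockouts 1 to 5 Lhx1 had 0.217, 0, 0, 4.63 and 0.324 CPM and Onecut1 2.88, 0, 0.0264, 0 and 0.149 CPM, so that 1 library carried most of each.

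Mueller glia genes leaned upward without a call. Of 21 genes 15 were well covered and 0 passed with edgeR (7 at an unadjusted p under 0.05, 2 higher with DESeq2 and 0 with limma). Of these all 15 had positive log2 changes (0.18 to 0.88, median 0.64). In 1 of the 15, Aqp4, every knockout exceeded every control, against 7.81% of all well-covered genes. Aqp4, the water channel of glial endfeet, had 119.8, 42.8, 112 and 107 CPM in the controls and 142, 154, 159.5, 266 and 126.2 CPM in the knockouts (0.83, SE 0.32, adjusted p = 0.267). Glul, glutamine synthetase, had 257 ± 134 and 368 ± 75.5 CPM (0.52, adjusted p = 0.541), Dkk3 625 ± 209 and 1087 ± 216 CPM (0.80, adjusted p = 0.152), Clu, clusterin, 712 ± 228 and 1109 ± 219 CPM (0.64, adjusted p = 0.235) and the glial factor Sox9 52.5 ± 22.0 and 96.6 ± 16.7 CPM (0.88, adjusted p = 0.21). Control 4 had the highest Mueller sum of the controls, 5863 CPM, above knockouts 1 and 5 at 5537 and 4536 CPM. With each library's gene number as a covariate the median turned to -0.10, with the rod level to -0.56, and stood at 1.00 without control 4.

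Other cells of the eye were thinly represented. Of 15 endothelial genes 4 were well covered, with 0 calls among them (2 at an unadjusted p under 0.05, 2 higher with DESeq2 and 1 with limma) and a median of 1.25. Flt1 and Kdr, the receptors of vascular endothelial growth factor, had 21.1 ± 7.51 and 49.6 ± 7.15 CPM (adjusted p = 0.0607) and 111 ± 73.4 and 268 ± 75.1 CPM (adjusted p = 0.255). Horizontal cells and other neurons are also known to express Kdr. Of the endothelial genes below the minimum 2 passed, while the other 8 tested had log2 changes from -0.74 to 2.25. The endothelial receptor gene Tie1 had 0 counts in the 4 controls and 6.49, 15.6, 3.56, 21.8 and 5.08 CPM in the knockouts (adjusted p = 0.0155), at least 619-fold higher over the group against a floor of 3 counts. Dll4, a Notch ligand of sprouting vessels, had 0, 0, 0.02798 and 0 CPM in the controls and 0.475 to 4.91 CPM in the knockouts (adjusted p = 0.0225). No gene of the ganglion cell, pericyte, pigment epithelium, or lens, cornea and ciliary body lists was well covered, and 1 each was among the 8 astrocyte and 7 oligodendrocyte genes. Ganglion cell genes summed to 18.1 to 108 CPM in the controls and 30.6 to 62.5 CPM in knockouts. Haemoglobin genes varied widely between libraries, with a summed red blood cell level of 55.5 CPM in knockout 1 and 676 CPM in knockout 2, and their median of 0.56 became -0.06 without knockout 2.

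**Figure D4:**
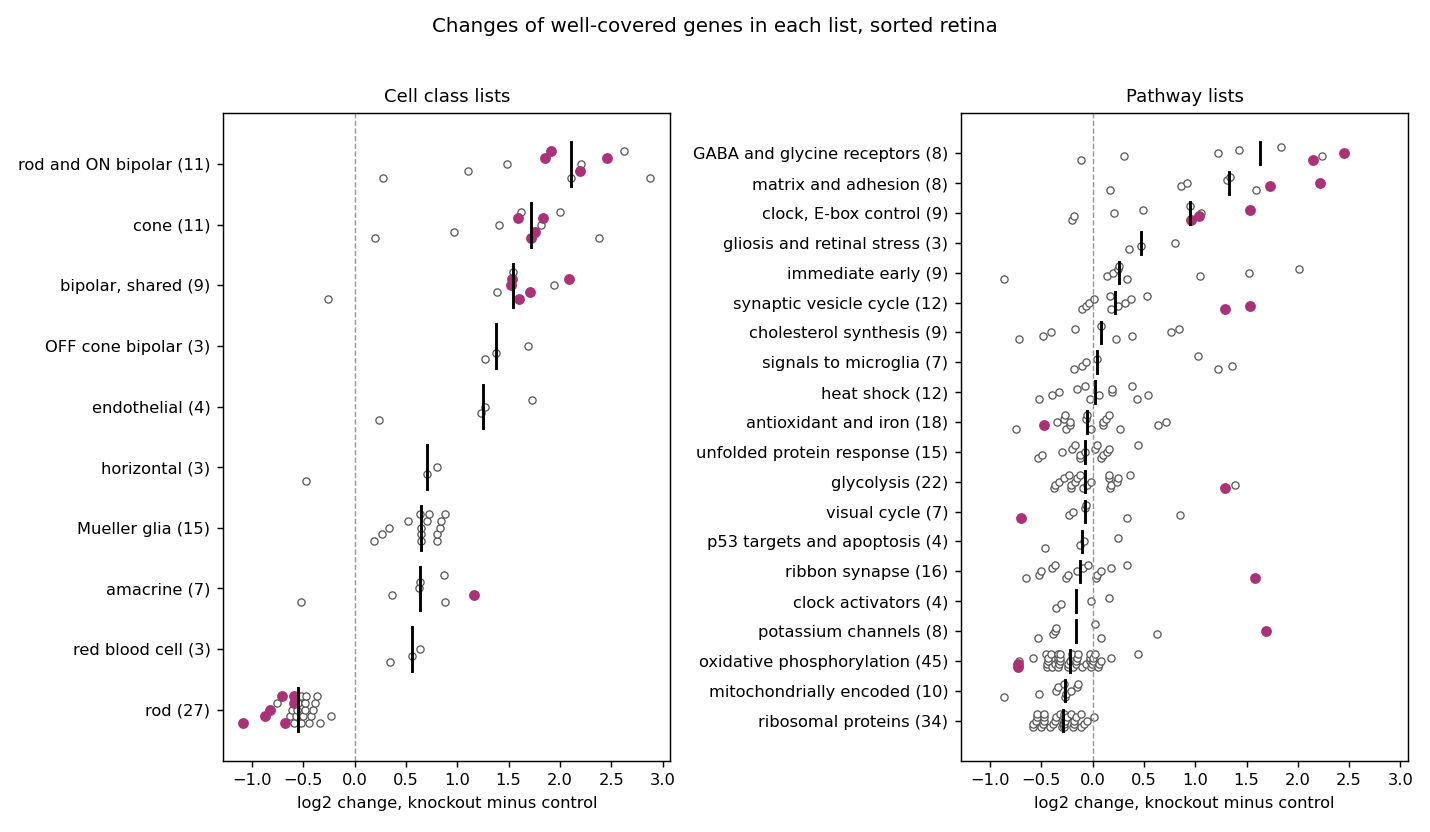
Log2 change (knockout minus control) of each well-covered gene, for the cell class lists (left) and pathway lists (right) with at least 3 such genes, their number in brackets. Filled points passed the test, open points did not, and the black bar is the list's median, which runs from -0.55 (rod) to 2.10 (rod and ON bipolar) among cell classes.

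Both listed genes for rho subunits of the receptors for GABA, an inhibitory transmitter, were higher. Of 19 genes of GABA and glycine receptors 8 were well covered, none of them a glycine receptor gene. Of the 8, 2 rose and 0 fell, and the median log2 change was 1.63. In 6 of the 8 every knockout exceeded every control, against 7.81% of all well-covered genes. Gabrr1, the rho1 subunit of the slow GABA receptors found on bipolar cell terminals, had 67.6, 31.0, 39.9 and 62.3 CPM in the controls and 268, 282, 338, 256 and 225 CPM in knockouts. The lowest knockout stood far above the highest control, and Gabrr1 rose 5.46-fold (2.45, SE 0.25, edgeR adjusted p = 0.0079). Gabrr2, the rho2 subunit, had 44.9, 37.3, 61.3 and 82.9 CPM in the controls and 187, 245, 390.3, 254 and 182 CPM in the knockouts (2.15, SE 0.31, adjusted p = 0.0135). Both passed in all 9 leave-one-library-out fits. Gabrg3, a subunit of fast GABA receptors, had 0 counts in all controls and 3.50 to 9.92 CPM in the knockouts (adjusted p = 0.0135), at least 344-fold higher over the group. Slc12a5, the chloride exporter KCC2 that makes GABA inhibitory, had 389, 379, 498 and 367 CPM in the controls and 954, 954, 1261, 926 and 822 CPM in the knockouts (1.27, SE 0.14, adjusted p = 0.012), passing in all 9 fits. No glycine receptor gene passed (adjusted p = 0.262 to 0.91). Of the 23 glutamate receptor genes, Grik1 and Grm6 described above were the 2 that were well covered.

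Synapse genes were listed by the type of synapse. Of 20 genes of the ribbon synapse and the photoreceptor terminal 16 were well covered, 1 rose and 0 fell, and the median was -0.12. Cplx3, a complexin of ribbon synapses, had 409.6, 164, 365 and 387 CPM in the controls and 927, 1003, 1128, 1055 and 838 CPM in the knockouts (1.58, SE 0.25, adjusted p = 0.019, passing in 8 of 9 leave-one-library-out fits). Its relative Cplx4, a complexin of rod terminals, had 1423 ± 183 and 1005 ± 176 CPM (-0.50, adjusted p = 0.114) and Cabp4, a calcium-binding protein of photoreceptor terminals, 469 ± 95.9 and 326 ± 35.0 CPM (-0.52, adjusted p = 0.11). Ctbp2, whose product RIBEYE builds the ribbon, had 447 ± 52.2 and 562 ± 51.3 CPM (0.33, adjusted p = 0.18). Of 20 genes of the vesicle cycle of conventional synapses 12 were well covered, 2 rose and 0 fell, with a median of 0.21. Sv2a, a synaptic vesicle glycoprotein, rose from 154 ± 29.96 to 378 ± 77.5 CPM (1.29, SE 0.19, adjusted p = 0.0141), passing in all 9 leave-one-library-out fits. Syn1, synapsin I of conventional synapses, rose from 44.8 ± 18.5 to 129.9 ± 27.2 CPM (1.54, SE 0.29, adjusted p = 0.038), passing in 2 of 9. Syt1, the calcium sensor of release, had 753 ± 116 and 935 ± 100.1 CPM (0.31, adjusted p = 0.27).

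Adhesion and channel genes held further large steps. Of 20 genes of the extracellular matrix and of neuronal adhesion 8 were well covered, 2 rose and 0 fell, with a median of 1.33. Reln, the secreted guidance protein reelin, had 49.1, 19.1, 28.5 and 40.3 CPM in the controls and 152, 195, 148, 166 and 134 CPM in the knockouts (2.21, SE 0.27, adjusted p = 0.0135, passing in all 9 leave-one-library-out fits). Cntn4, a contactin, rose from 27.1 ± 11.4 to 89.6 ± 13.5 CPM (1.73, adjusted p = 0.0225), and Nrxn3, a presynaptic neurexin, had 89.8 ± 35.0 and 223 ± 83.7 CPM (1.31, adjusted p = 0.097). Of 22 potassium channel and pump genes 8 were well covered, 1 rose and 0 fell, with a median of -0.16. Kcnma1, the BK channel gated by calcium and voltage, had 68.7, 40.9, 46.1 and 66.2 CPM in the controls and 196, 151, 236, 189 and 122 CPM in the knockouts (1.69, SE 0.24, adjusted p = 0.0135). Kcnh2, the channel known as hERG, was in no list and rose from 20.5 ± 8.66 to 113 ± 18.2 CPM (2.47, SE 0.30, adjusted p = 0.0135). Below the minimum the accessory subunit gene Kcnab1 rose from 5.84 ± 2.28 to 33.4 ± 4.23 CPM (2.51, adjusted p = 0.0135), and these 3 passed in all 9 fits. The photoreceptor channel gene Kcnv2 had 1057 ± 148 and 822 ± 106 CPM (-0.36, adjusted p = 0.216).

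Clock genes under E-box control leaned upward in this fraction, which by the genotype name the deletion did not target. Of 15, 9 were well covered, 3 rose and 0 fell, and the median was 0.95. In 5 of the 9 every knockout exceeded every control, against 7.81% of all well-covered genes. Cry2, a cryptochrome that represses BMAL1 and CLOCK, had 112, 94.0, 116 and 124 CPM in the controls and 212, 261, 248, 218 and 203 CPM in knockouts. It rose 2.05-fold (log2 change 1.04, SE 0.12, edgeR adjusted p = 0.0134) and passed in all 9 leave-one-library-out fits. Nr1d1, which encodes REV-ERB alpha, a repressor of Bmal1, had 264, 189.9, 304 and 226 CPM in the controls and 422, 602, 539, 507 and 330.2 CPM in the knockouts (0.96, SE 0.20, adjusted p = 0.0483). Bhlhe40, the repressor DEC1, rose from 16.9 ± 6.30 to 48.7 ± 11.4 CPM (1.53, adjusted p = 0.0472). Nr1d1 passed when knockout 5 was left out and in no other such fit, and Bhlhe40 did not pass in any of the 9 leave-one-library-out fits (0.0565 to 0.103). Dbp and Tef, output factors of the clock, had 60.5 ± 27.6 and 125.8 ± 14.2 CPM (1.06, adjusted p = 0.108) and 152 ± 19.0 and 214 ± 12.6 CPM (0.50, adjusted p = 0.0617). Per1, a period gene under the minimum, had a log2 change of 0.69 (SE 0.36, adjusted p = 0.458). The activating arm went with neither direction, since of 6 genes 4 were well covered, 0 passed (1 at an unadjusted p under 0.05, 0 with DESeq2 or limma) and the median was -0.16, with Rorb, a nuclear receptor of retinal neurons, at 718 ± 95.01 and 579.8 ± 41.8 CPM (-0.31, adjusted p = 0.196). The E-box word CACGTG was found in a promoter window of 5 of 11 of the E-box list (45.5%), against 12.6% of well-covered genes and 8.09% of all genes with a window. That list was drawn up for E-box control, so its higher share is no result of these data. Both windows of Tef held the word, those of Cry2, Nr1d1 and Dbp did not, and Bhlhe40 had no window. The hour of collection is not labelled, so that a difference in clock phase and one in level cannot be told apart.

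Few genes of energy metabolism passed, and list medians were flat or slightly negative. Among all well-covered genes 2.21% passed as higher and 0.937% as lower. Of 24 glycolysis genes 22 were well covered, 1 rose and 0 fell, with a median of -0.08. Pfkm, the muscle form of phosphofructokinase, rose from 50.1 ± 9.90 to 123 ± 37.0 CPM (1.29, SE 0.24, adjusted p = 0.0366), and Ldha, lactate dehydrogenase A, had 4509 ± 831 and 3507 ± 521 CPM (-0.36, adjusted p = 0.292). Pygm, which frees glucose from glycogen, is in no list and was named for its small p. It had 120.5, 130.2, 133 and 110.5 CPM in the controls and 338, 398, 466, 376 and 281 CPM in knockouts. It rose 3.01-fold (1.59, SE 0.15, adjusted p = 0.00581), passing in all 9 leave-one-library-out fits. Of 46 nuclear genes of oxidative phosphorylation 45 were well covered, 2 fell and 0 rose, 37 were negative and the median was -0.22. The 2 were Ndufa4 and Cox6c, small subunits of the respiratory chain, at 301 ± 49.9 and 182 ± 21.1 CPM (-0.72, adjusted p = 0.0387) and 119 ± 18.6 and 72.3 ± 7.26 CPM (-0.72, adjusted p = 0.038). All 10 well-covered genes of the mitochondrial genome were negative (median -0.27, 0 calls with edgeR, DESeq2 or limma, 1 at an unadjusted p under 0.05), among them mt-Cytb with 2411 ± 418 and 1910 ± 334 CPM (-0.34, adjusted p = 0.37). Ribosomal protein genes, 34 well covered of 43, had 33 negative changes, a median of -0.28 and 0 calls (10 at an unadjusted p under 0.05, 4 lower with DESeq2). Rpl21, a ribosomal protein gene outside that list, fell from 97.3 ± 8.50 to 57.6 ± 4.16 CPM (-0.76, SE 0.11, adjusted p = 0.0171), passing in all 9 leave-one-library-out fits, and reads shared with its pseudogenes are uncertain. Once each library's trends on transcript length and GC content were removed, the medians were 0.15 for oxidative phosphorylation, 0.55 for the mitochondrial genome and -0.01 for ribosomal proteins, and Ndufa4 stood at 0.02, so the direction of the first 2 rested on that setting.

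The visual cycle, which regenerates the light-sensing pigment, had 7 well-covered genes of 17, of which 1 fell, with a median of -0.08. Rdh12, the retinol dehydrogenase of photoreceptors, had 1053, 1264, 1142 and 1119 CPM in the controls and 777, 706, 623.5, 571 and 863 CPM in the knockouts (-0.69, SE 0.13, adjusted p = 0.0327). The groups stood apart, and the call held without knockout 5 and in none of the other 8 leave-one-library-out fits.

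Of the genes of injury and stress, none of the well-covered members of the heat shock (12 genes, median 0.02), unfolded protein response (15, -0.07), p53 and apoptosis (4, -0.11), interferon (1, -0.24), immediate early (9, 0.26) or gliosis lists (3, 0.47) passed with edgeR. In the same order 1, 1, 0, 0, 4 and 1 of them had an unadjusted p under 0.05, and DESeq2 called 1 lower heat shock gene and 3 higher and 1 lower immediate early genes. Among immediate early genes, which neurons switch on with activity or handling, Fos had 8.84, 20.9, 16.4 and 18.1 CPM in the controls and 47.4, 77.5, 33.8, 36.4 and 36.5 CPM in the knockouts (1.53, SE 0.34, adjusted p = 0.0641). Egr1 had 18.5 ± 12.8 and 74.6 ± 26.3 CPM (2.01, SE 0.48, adjusted p = 0.0808) and Nr4a1 27.0 ± 8.66 and 55.9 ± 16.7 CPM (1.05, adjusted p = 0.11). In these 3 every knockout exceeded every control, as in 7.81% of all well-covered genes. Ier3, an immediate early gene of cell survival, had 69.1 ± 12.1 and 38.0 ± 8.93 CPM (-0.86, adjusted p = 0.0782). The chaperone gene Hsp90aa1 had 1293 ± 202 and 898 ± 169 CPM (-0.53, adjusted p = 0.129) and Atf4, the transcription factor of the integrated stress response, 107 ± 7.34 and 76.1 ± 15.5 CPM (-0.49, adjusted p = 0.157). Of the gliosis genes, Stat3 had 71.6 ± 9.99 and 99.2 ± 31.0 CPM (0.47, adjusted p = 0.416), and Osmr, the oncostatin M receptor, a low-level gene with 0 CPM in 3 controls and 0.05985 in control 2, had 2.498, 10.9, 1.22, 7.80 and 8.00 CPM in the knockouts (adjusted p = 0.0306). Of 25 antioxidant and iron genes 18 were well covered and 1 fell. This was Gpx4, the enzyme that removes lipid peroxides, with 677, 791, 726 and 668 CPM in the controls and 516, 549, 494, 532 and 488 CPM in the knockouts (-0.47, SE 0.08, adjusted p = 0.0247, passing in 3 of 9 leave-one-library-out fits). Fth1, the ferritin heavy chain, had 1051 ± 93.2 and 825 ± 92.6 CPM (-0.35, adjusted p = 0.129), and Nqo1, a quinone reductase below the minimum, had 0 counts in all controls and 0, 5.12, 0, 0.886 and 3.94 CPM in the knockouts, with 2 knockouts at 0 like the controls, and was not tested. Of 17 genes of cholesterol synthesis 9 were well covered and 0 passed (4 at an unadjusted p under 0.05, 2 higher and 1 lower with DESeq2, median 0.08), with Srebf2, the master regulator, at 90.1 ± 22.3 and 153 ± 20.4 CPM (0.76, adjusted p = 0.0766) and the enzyme gene Msmo1 at 55.5 ± 2.76 and 33.7 ± 9.45 CPM (-0.72, adjusted p = 0.127).

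Signals that retinal cells are known to send to microglia were measured too. Of 20 such genes 7 were well covered, 0 passed with edgeR (2 at an unadjusted p under 0.05, 1 higher with DESeq2) and the median was 0.04. Cx3cl1, the neuronal chemokine fractalkine whose receptor is on microglia, had 50.1, 8.08, 21.1 and 79.9 CPM in the controls and 96.1, 110.1, 116, 89.95 and 99.7 CPM in the knockouts (1.36, SE 0.54, adjusted p = 0.275). The knockouts lay close together above widely spread controls. Tgfb2, a growth factor that keeps microglia in their resting state, had 36.7 ± 14.7 and 85.5 ± 21.8 CPM (1.22, SE 0.31, adjusted p = 0.0969), again with every knockout above every control. Such separation upward was found in 7.81% of all well-covered genes.

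Most calls lay outside the lists, as did most well-covered genes. The 40 lists hold 348 of the 5016 well-covered genes, and 121 of the 158 that passed belong to none of them, with 85 higher and 36 lower. Of the well-covered genes the one with the smallest p was Ptprf, a receptor tyrosine phosphatase of the LAR family, with 41.6, 52.97, 49.7 and 36.9 CPM in the controls and 141, 118, 149.9, 159 and 142 CPM in the knockouts (1.65, SE 0.15, edgeR adjusted p = 0.00569). Igsf21, an adhesion protein of inhibitory synapses, had 65.3, 37.7, 50.1 and 58.2 CPM in the controls and 164, 193, 226, 202 and 161 CPM in the knockouts (1.84, SE 0.18, adjusted p = 0.00758). Both separated the genotypes widely. Tpbg, a leucine-rich repeat membrane protein, rose 7.69-fold, from 6.397 ± 3.71 to 49.2 ± 11.2 CPM, the largest fold of the 15 genes named for their p among those that rose. Celf3, an RNA-binding protein of neurons, rose 5.9-fold, from 9.94 ± 3.55 to 58.7 ± 18.6 CPM, and Mpp2, a membrane scaffold protein, 3.29-fold. The transcriptional regulator gene Irf2bpl rose 2.94-fold and Selenon, which encodes a selenoprotein of the endoplasmic reticulum, 2.65-fold. All 7 of these genes passed in all 9 leave-one-library-out fits, with adjusted p values up to 0.0361.

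Genes outside the lists also fell, some of them known from photoreceptors. Prcd, a small protein of photoreceptor discs named after progressive rod-cone degeneration, had 641, 902, 802 and 756 CPM in the controls and 525, 521, 443, 495 and 504 CPM in the knockouts (-0.64, SE 0.11, adjusted p = 0.0228). Fam161a, a ciliary protein whose loss causes retinitis pigmentosa, had 206, 194, 171 and 184 CPM in the controls and 128, 85.6, 97.0, 89.2 and 124 CPM in the knockouts (-0.85, adjusted p = 0.0272). Gpsm2, a regulator of G-protein signalling and spindle orientation, fell from 662 ± 26.3 to 374 ± 70.4 CPM (-0.83, adjusted p = 0.0225) and Slc16a6, a monocarboxylate transporter, from 271 ± 36.1 to 158 ± 21.1 CPM (-0.78, adjusted p = 0.0226). Pdia5, a disulfide isomerase, had 72.1, 63.5, 66.5 and 74.3 CPM in the controls and 37.7, 36.6, 34.2, 43.7 and 41.4 CPM in the knockouts (-0.84, SE 0.13, adjusted p = 0.0189), passing in 8 of 9 leave-one-library-out fits. Ebpl, Grtp1, Thoc5, of the mRNA export complex, and Epb41l2, a membrane skeleton protein, fell by 0.67, 0.75, 0.63 and 0.52 on the log2 scale (adjusted p = 0.0254, 0.0306, 0.0306 and 0.0307). Among these 9 genes, Pdia5 came closest to passing in every such fit, and the others passed in 2 to 6 of the 9.

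The genotype effect in retina was set against that in the microglia sorted at the same time, by a test of the difference over all 18 libraries. Of 18128 genes 85 (0.469%) passed, 71 (0.392%) with a higher and 14 (0.0772%) with a lower effect in retina, and of the 5016 genes well covered in retina 18 (0.359%) passed, 12 (0.239%) higher and 6 (0.12%) lower. Irf2bpl rose in retina by 1.55 on the log2 scale and had -0.11 in microglia, a difference of 1.70 (SE 0.26, edgeR adjusted p = 0.00606). The E3 ligase gene Rnf130 (difference 1.28, adjusted p = 0.0131), Fscn1, the actin-bundling protein fascin (1.46, adjusted p = 0.0251) and Tpbgl, a relative of Tpbg (1.83, adjusted p = 0.0253), rose in retina and had -0.04, -0.22 and -0.15 in microglia. In the other direction, the histone variant gene H2afx had -0.67 in retina and 1.29 in microglia (difference -1.92, adjusted p = 0.0162), the cell cycle inhibitor gene Cdkn2c -0.47 and 2.11 (-2.55, adjusted p = 0.0173) and Cdc34, a ubiquitin-conjugating enzyme of the cell cycle, -0.30 and 0.99 (-1.26, adjusted p = 0.0176). Vipr2, a receptor for vasoactive intestinal peptide, and Ehd3, an endocytic protein, differed through their near absence from knockout microglia, at 0.0111 and 0.0813 CPM against 9.20 and 9.24 CPM in control microglia. For Cabp5 (0.93, adjusted p = 0.658), Gnat2 (1.83, adjusted p = 0.251), Cry2 (-0.31, adjusted p = 0.756) and Pygm (1.23, adjusted p = 0.293) the difference between the fractions did not pass. In control microglia these 4 genes had 10.03, 29.56, 29.23 and 23.85 CPM on average.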

How the data were processed

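RNA of flow-sorted cells was amplified from small amounts with a SMARTer kit and sequenced as paired reads, per the labels' protocols, so that counts are not independent molecules and floors cover counting error only. The authors deposited raw counts per gene for 18 libraries on GRCm38. STAR 2.7.9a, DRAGEN, Subread and featureCounts are named in the submitters' processing notes without roles, and whether counting used strand is not given in the sources used here. The authors also deposited a table for the retina comparison which holds each gene's log2 fold change, its mean as log2 CPM, a score from a likelihood ratio and p-values, per the file headers. Of the 255 genes called here, 235 passed an adjusted p under 0.05 in the authors' deposited table, which has 744 such genes. The 744 include genes given above as not passing, such as Cx3cl1, Tgfb2, Dkk3, Clu, Fos and Egr1. Others given as not passing, such as Glul, Aqp4 and Stat3, did not pass there either.

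The table's 55774 lines held 55487 genes after 287 repeated lines were dropped, and 55141 were matched to GENCODE M21 for names, positions and lengths. No sample column was left unused. The 9 retina libraries were fitted alone with edgeR 4.0.16 in R 4.3.3 (filterByExpr, TMM, quasi-likelihood test, Benjamini-Hochberg adjustment), and the difference from microglia over 18 libraries. Standard errors were derived from the F statistic. Folds against a group with 0 counts use a floor of 3 counts for that whole group. Members, lists, tests and alternatives were chosen with earlier results of these data known, so list counts are descriptions without a test. Named genes are Cabp5, Gnat2, Rlbp1, Arntl, the 15 higher and 15 lower genes with the smallest p among called well-covered genes without a model name, the first 2 members, the 5 smallest p and any called member of each list, and the 10 smallest p of the difference, of which those that carry a result are given, and some are not reported here. Tnr was added to that difference, and Otx2 and the motif searches, after values were seen.

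Alternatives were DESeq2 1.42.0 and its size factors, limma 3.58.1 (voom with quality weights), no filter, a filter of 30 CPM, the replicate number as a block, rod level, number of genes with a count or Y-linked level as a covariate, trends on length and GC content removed, all 18 libraries in 1 fit, and leaving out each library.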

Additional observations from a re-analysis of the deposited data

Results flagged for a closer look

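In 14 of 246 groups of 4 or 5 libraries examined, over the genes named above, 1 library stood far from the others of its group, by a rule that chance meets in about 1 in 20 groups. These were control 4 for Car8 (23.65 CPM), control 3 for Gngt1 (1202 CPM), control 2 for Aqp4 (42.8 CPM), control 4 for Ctbp2 (369.8 CPM), control 1 for Rpl21 (84.6 CPM) and control 3 for Msmo1 (59.6 CPM). Among genes nearly absent from controls they were control 2 for Tnr (0.0299 CPM), control 3 for Dll4 (0.0280 CPM) and control 2 for Osmr (0.0599 CPM), each resting on 1 or 2 counts. Among knockouts they were knockout 4 for Pde6c (235.9 CPM) and Aqp4 (266 CPM), knockout 3 for Nrxn3 (367 CPM), knockout 2 for Fth1 (987 CPM) and knockout 5 for Ebpl (186 CPM).

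Of the 85 genes whose genotype effect differed between retina and microglia by the edgeR test of the difference, 10 are flagged here, all named above. The retina effect was higher by 1.70 for Irf2bpl, 1.28 for Rnf130, 1.46 for Fscn1 and 1.83 for Tpbgl on the log2 scale, and lower for H2afx (-1.92), Cdkn2c (-2.55) and Cdc34 (-1.26). The fitted differences for Tnr (18.91), Vipr2 (10.31) and Ehd3 (8.20) depend on the prior count, since Tnr was nearly absent from control retina and all 3 from knockout microglia.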

How the results depend on the processing

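The medians of cone, shared bipolar and rod and ON bipolar genes stayed positive in every fit run, that of rod genes turned in 1 and that of Mueller glia genes in 2, while the number of calls depended on the fit. Against 255 genes (111 and 47 well covered, higher and lower), DESeq2 called 1188 (431 and 291), a test of genes with at least 30 CPM 468 (297 and 170), no filter 120 (62 and 5), the Y-linked covariate 153 (66 and 12), the gene number 2 (1 and 0) and the rod level 0 (0 and 0). With trends on length and GC content removed 124 well-covered genes were lower, and with all 18 libraries in the fit 8 were. Leaving out a library gave 96 to 342 genes, 36 to 120 well covered higher and 1 to 83 lower. The share of counts in the 10 most abundant genes differed by -4.43 to -2.67 percentage points, leaving out a library, and the number of genes with a count by 1218 to 1953. Same-numbered control and knockout libraries correlated by 0.0164, 0.0101, 0.0614 and 0.106 in their deviations, so the numbers were not taken to pair them, and with the replicate block 0 genes were called (0 and 0, 2208 at an unadjusted p under 0.05). The difference from microglia had 85 calls, 9 with the replicate block, 1076 with DESeq2 and 59 to 143 leaving out a library.

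With the rod level as a covariate the medians were 0.0137 (rod), 0.10 (cone), 0.69 (bipolar, shared), 0.20 (rod and ON bipolar) and -0.56 (Mueller glia), and with the gene number of each library -0.16, 0.88, 0.99, 0.89 and -0.10. Of the genes named above, these turned sign with the rod level: Rlbp1 -0.69, Arntl 0.34, Arr3 -0.18, Glul -0.74, Dkk3 -0.21, Clu -0.31, Aqp4 -0.46, Kdr -0.37, Cplx4 0.14, Cabp4 0.0567, Kcnv2 0.0948, Ldha 0.20, Cx3cl1 -0.0636, Tgfb2 -0.0490 and Vipr2 -0.68. With the gene number Rlbp1 had -0.27, Glul -0.36, Aqp4 -0.0353, Ldha 0.0471, Cx3cl1 -0.10 and Vipr2 -0.00631, and with trends removed Ndufa4 had 0.0204, Uqcrb 0.31, mt-Nd2 0.0489 and mt-Cytb 0.47. The cause of these changes was not tested.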
